A study of Mus musculus with 31 samples.

Results

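The 8 genes described here, Amh, Cst9, Cbln1, Cbln4, Defb19, Ptgds, Vnn1 and Tesc, encode products that Sertoli cells secrete, carry on their surface or hold at their membrane. They were chosen by symbol, from probe sets annotated with exactly 1 of these names, and each gene was read from the probe set with the highest mean signal over the 31 arrays. All 8 had such a probe set and stand among 18194 genes measured in the same way. Together they had 13 probe sets. Cst9, Cbln4, Defb19 and Ptgds lie on mouse chromosome 2, Amh and Vnn1 on chromosome 10, Tesc on chromosome 5 and Cbln1 on chromosome 8.

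Fetal mouse gonads were profiled on Affymetrix 3′ expression arrays, from total RNA of whole ovaries and testes taken 12, 14 or 16 days after mating (days post coitum, dpc). Embryos were wild type or Wv/Wv, that is, homozygous for Wv, a mutant allele of Kit, the receptor tyrosine kinase that migrating germ cells need to survive. The arrays numbered 2, 3 and 3 for wild-type ovaries at 12, 14 and 16 dpc and 2, 3 and 3 for Wv/Wv ovaries. They numbered 1, 3 and 3 for wild-type testes and 3, 2 and 3 for Wv/Wv testes. The labels name the arrays of a group biological replicates and do not say how many embryos each one holds, so a p-value here sets a difference against the scatter of these arrays, part of which may be technical. The mutation is present in every cell of the Wv/Wv embryo, and no cell type was isolated. Values are log2 signals, each a relative brightness of 1 probe set, so levels are compared between samples and never between genes. In a whole gonad, fewer cells of a type and less RNA per cell cannot be told apart.

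Sertoli cells are the first somatic cells of the testis to differentiate. They are specified by Sry and Sox9, enclose the germ cells in cords and direct the other lineages through what they release. Amh, or anti-Müllerian hormone, is the secreted TGF-beta family ligand that makes the Müllerian duct regress in males. Cst9 belongs by sequence to the cystatin family, many members of which inhibit cysteine proteases. Cbln1 and Cbln4 are secreted C1q-domain proteins best known as organisers of synapses, Defb19 is a small cationic beta-defensin peptide, and Ptgds makes prostaglandin D2, which reinforces Sox9 in neighbouring cells. Vnn1 is a pantetheinase anchored to the outer cell surface, and Tesc, or tescalcin, is a calcium-binding protein of the EF-hand type that binds the sodium-proton exchanger at the inner side of the membrane.

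The samples matched their labelled gonads on other genes. The Y-linked gene Kdm5d had a mean of at least 7.76 in every testis group and at most 3.32 in every ovary group. Of 7 pregranulosa genes, 7 were lower in testis than in ovary at 14 and at 16 dpc in both genotypes. Over all genes, 2.76% and 5.14% were called lower at these ages in wild type and 1.36% and 3.17% in Wv/Wv. Of 12 germ cell genes, 10 were lower in Wv/Wv than in wild-type testes at 14 dpc, where 0.594% of all genes were called lower. The arrays fell into 2 classes. On 21 arrays the SD over all probe sets was 2.33 to 2.39, and on the other 10 it was 1.77 to 2.18. The Gapdh control probe sets differed by 1.75 to 2.56 between the 3′ and the 5′ end on the wide-spread arrays and by 0.51 to 1.12 on the narrow-spread ones. The narrow-spread arrays are all 3 of wild-type ovaries at 16 dpc, array 2 of Wv/Wv ovaries at 16 dpc, array 1 of wild-type and arrays 2 and 3 of Wv/Wv ovaries at 14 dpc, array 1 of wild-type and of Wv/Wv testes at 16 dpc, and array 2 of Wv/Wv testes at 14 dpc. Array 1 of wild-type testes at 16 dpc had the lowest SD, 1.77. Changes are therefore given from the fit of group means over 31 arrays and, where it matters, from a class-adjusted fit, which adds the array class as a term and drops that array of wild-type testes.

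The promoter table of RefSeq, build GRCm38.p6, held 4 of the 8 genes, Cst9, Cbln4, Ptgds and Tesc. The 250 bases upstream of the start are printed for Cst9 and Cbln4, the members in which letters of a motif were found. Both are among the 4 members whose testis arrays all lay above all ovary arrays. So is Tesc, whose window held no such letters, and so is Cbln1, which had no window. Capitals mark the SOX letters ACAAAG or AACAAT and the GATA letters GATAA, searched on both strands together with the NR5A1 letters AAGGTCA.
Cst9, chr2:148834897-148835146, plus strand: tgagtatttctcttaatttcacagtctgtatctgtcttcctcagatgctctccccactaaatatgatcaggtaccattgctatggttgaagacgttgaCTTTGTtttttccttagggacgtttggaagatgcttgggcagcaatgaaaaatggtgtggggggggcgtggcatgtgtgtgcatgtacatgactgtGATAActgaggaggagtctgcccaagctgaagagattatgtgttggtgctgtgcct
Cbln4, chr2:172043467-172043716, minus strand: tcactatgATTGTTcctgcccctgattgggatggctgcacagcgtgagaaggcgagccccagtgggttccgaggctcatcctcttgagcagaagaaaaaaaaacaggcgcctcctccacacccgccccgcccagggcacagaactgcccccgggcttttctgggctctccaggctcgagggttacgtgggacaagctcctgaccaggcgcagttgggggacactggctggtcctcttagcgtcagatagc
In Cst9 the SOX letters ACAAAG lie on the strand opposite the gene, 152 to 147 bases upstream, and GATAA lies on the gene's strand 56 to 52 bases upstream. In Cbln4 the SOX letters AACAAT lie on the opposite strand 242 to 237 bases upstream. The windows of Ptgds and Tesc held none of the 4 motifs. Of 32851 windows of this length, 16.5% held ACAAAG, 9.42% held AACAAT, 22.6% held GATAA and 4.08% held AAGGTCA. A match describes letters in the window and is not a binding site.

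Most of the 8 genes were strongly higher in testis than in ovary at every age and in both genotypes. In wild type, limma called 6 of 8 higher in testis at 12 dpc, where 0.214% of all genes tested were called higher. At 14 dpc it called 6 of 8 against 3.17% of all genes, and at 16 dpc 6 of 8 against 4.5%. These were Cst9, Cbln1, Cbln4, Defb19, Tesc and Ptgds each time. In Wv/Wv the count was 5 of 8 at 12 dpc against 0.275% of all genes, 7 of 8 at 14 dpc against 2.32% and 7 of 8 at 16 dpc against 3.79%. Ptgds was the gene that did not pass in Wv/Wv at 12 dpc, and Amh joined the list at 14 and 16 dpc. No member was called lower in testis, where 0.0385%, 2.76% and 5.14% of all genes were in wild type and 0.0989%, 1.36% and 3.17% in Wv/Wv (limma). Counted in either direction, 0.253%, 5.93% and 9.65% of all genes were called in wild type and 0.374%, 3.69% and 6.96% in Wv/Wv. The 12 dpc calls rest on the spread estimated over all 12 groups: with only the arrays compared in the limma fit, 0 of 8 passed in wild type and 0 of 8 in Wv/Wv, and 8 and 7 had an unadjusted p below 0.05.

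In the class-adjusted fit the counts were 7, 8 and 8 of 8 in wild type, where 0.929%, 7.76% and 7.98% of all genes were called higher. In Wv/Wv they were 6, 8 and 8 of 8, beside 1.4%, 9.6% and 10.4% of all genes. In wild type at 16 dpc this fit sets 2 wide-spread testis arrays against 3 narrow-spread ovary arrays, so there the class effect comes from the other groups and gonad and class cannot be told apart within the comparison. At 12, 14 and 16 dpc the median change of the 8 genes in the fit of group means was 4.31, 4.01 and 3.77 on the log2 scale for wild type. For Wv/Wv it was 3.58, 4.15 and 4.29. In the class-adjusted fit these medians were 4.31, 3.93 and 3.95 for wild type and 3.58, 4.14 and 4.29 for Wv/Wv. For 4 members, Cst9, Cbln1, Cbln4 and Tesc, every one of the 15 testis arrays lay above every one of the 16 ovary arrays. Over all genes 51, or 0.28%, separated the gonads in this way. Amh, Defb19, Ptgds and Vnn1 overlapped. Within 1 age, all genes with testis arrays wholly above ovary arrays made up 36.9%, 16.4% and 7% in wild type and 22.4%, 10.4% and 10.7% in Wv/Wv, which is the background for the separations described for single genes.

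**Figure D1:**
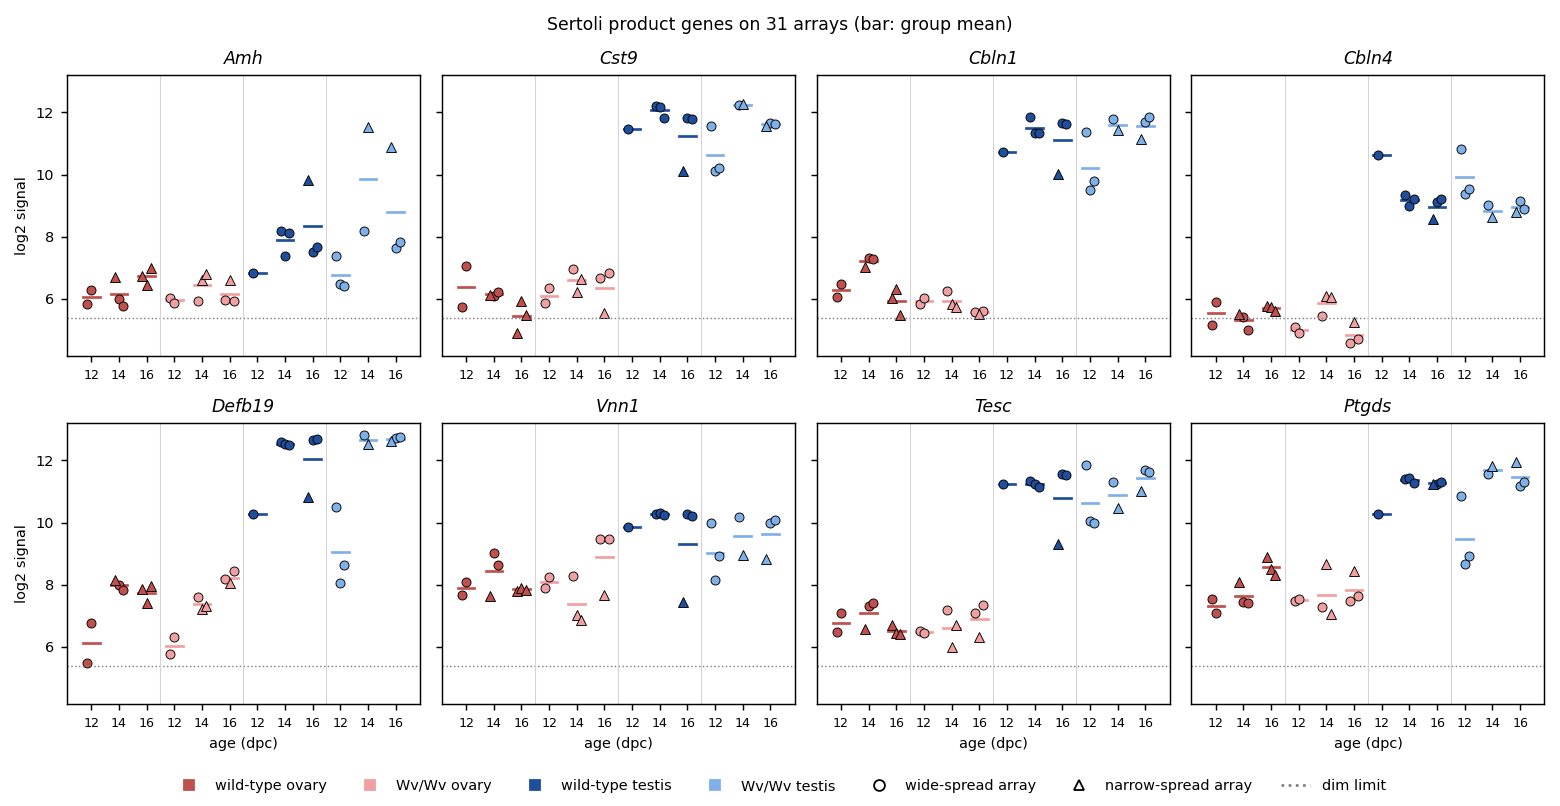
Log2 signal (vertical axis) of the 8 genes on each of the 31 arrays, by group and age in dpc; circles are wide-spread and triangles narrow-spread arrays, bars are group means and the dotted line is 5.39, the 40th percentile of all values. Cst9, Cbln1, Cbln4 and Tesc leave a gap between ovaries and testes, while Amh reaches 11.52 on a triangle of Wv/Wv testis at 14 dpc.

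**Figure D2:**
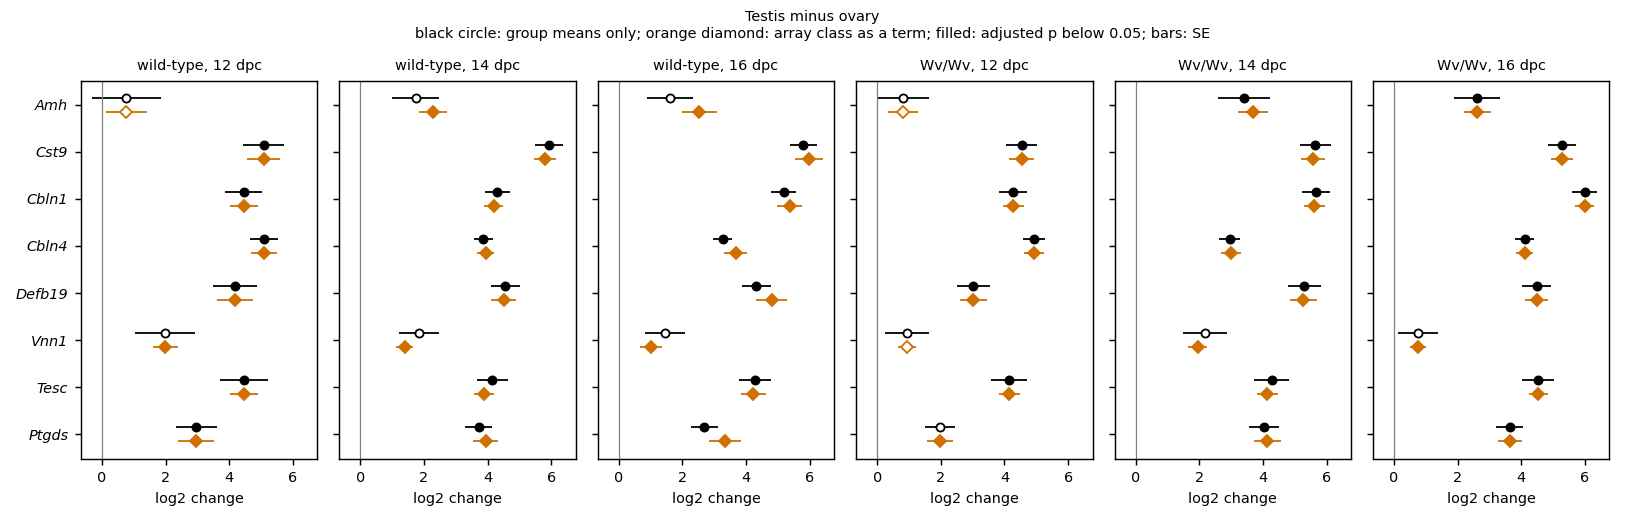
Testis minus ovary on the log2 scale for each gene, in 6 panels by genotype and age; bars are the SE of the fit, black circles the fit of group means, orange diamonds the class-adjusted fit, and filled symbols mark an adjusted p below 0.05. Cst9 changes by 4.54 to 5.93 with filled circles in all panels, whereas the circles of Vnn1 are open in all panels.

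Amh, the hormone, was low in ovaries and spread widely among testis arrays. Over the 16 ovary arrays it ran from 5.77 to 7.00 with a median of 6.14. In wild-type testes it was 6.82 on the single array at 12 dpc, 8.19, 7.39 and 8.12 at 14 dpc, and 9.81, 7.50 and 7.68 at 16 dpc. In Wv/Wv testes it was 7.38, 6.48 and 6.40 at 12 dpc, 8.19 and 11.52 at 14 dpc, and 10.87, 7.64 and 7.84 at 16 dpc. The 3 highest values, 11.52, 10.87 and 9.81, are the 3 narrow-spread arrays among the testes. From 14 dpc on, the testis arrays all lay above every ovary array, and at 12 dpc Wv/Wv testes at 6.40 to 7.38 lay above the 4 ovary arrays of that age.

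The 2 Wv/Wv testis arrays at 14 dpc thus differed by 3.32 on the log2 scale, and the group's SD was 2.35. The change from ovary to testis in that group was 3.41 ± 0.81 (SE, adjusted p 0.0144), and without the narrow-spread array 2 it was 1.75 (adjusted p 0.489). At 16 dpc the Wv/Wv change was 2.62 ± 0.73 (adjusted p 0.026), and it lost the call without testis array 1 (1.57, adjusted p 0.262), ovary array 1 (2.52, 0.094) or ovary array 3 (2.49, 0.0994). Among the wild-type gonads the fit of group means gave 1.73 ± 0.73 at 14 dpc (adjusted p 0.24) and 1.61 ± 0.73 at 16 dpc (adjusted p 0.187), neither of which passed.

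Within 1 array class the Amh testis arrays also lay above the ovary arrays from 14 dpc on. Over the wide-spread arrays alone the change was 2.01 ± 0.27 in wild type at 14 dpc (adjusted p 0.000141), 2.25 ± 0.42 in Wv/Wv at 14 dpc (0.00466) and 1.79 ± 0.30 in Wv/Wv at 16 dpc (0.000631). In Wv/Wv at 14 dpc the wide-spread arrays are 1 against 1, and at 16 dpc 2 against 2, so the spread is taken from the other groups too. Over the narrow-spread arrays alone each testis group holds 1 array, so the differences there are given with no test: 3.10 in wild type at 16 dpc, 4.83 in Wv/Wv at 14 dpc and 4.26 in Wv/Wv at 16 dpc. Both sets of fits were chosen after seeing the data. At 12 dpc the wild-type change of 0.77 ± 1.09 and the Wv/Wv change of 0.81 ± 0.81 did not pass in any of the fits run.

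Cst9, the cystatin, was higher in testis in all 6 comparisons, with no overlap of arrays. Ovary arrays ran from 4.90 to 7.04 with a median of 6.16. Testis arrays ran from 10.11 to 12.27 with a median of 11.66, so the gonads were at least 3.07 apart on the log2 scale. In wild-type testes Cst9 was 11.47 at 12 dpc, 12.22, 12.17 and 11.81 at 14 dpc, and 10.12, 11.81 and 11.78 at 16 dpc. In Wv/Wv testes it was 11.58, 10.11 and 10.21 at 12 dpc, 12.23 and 12.27 at 14 dpc, and 11.57, 11.66 and 11.62 at 16 dpc. The low values are arrays 2 and 3 of Wv/Wv at 12 dpc and array 1 of wild type at 16 dpc, and the remaining testis arrays read 11.47 to 12.27.

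The change of Cst9 was 5.08 ± 0.65 in wild type at 12 dpc, a 33.8-fold difference (adjusted p 0.000245). It was 5.93 ± 0.43 at 14 dpc (61-fold, adjusted p 1.6e-09) and 5.80 ± 0.43 at 16 dpc (adjusted p 2.13e-09). One wild-type ovary array at 16 dpc read below 5.39, and with it set to that limit the difference there was at least 49.9-fold. In Wv/Wv the changes were 4.54 ± 0.49, 5.64 ± 0.49 and 5.28 ± 0.43 at 12, 14 and 16 dpc.

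Cbln1, the synaptic organiser of the cerebellum, was higher in testis in all 6 comparisons. Ovary arrays ran from 5.48 to 7.32 and testis arrays from 9.52 to 11.86, with medians of 6.03 and 11.36. The testis minus ovary change was 4.45 ± 0.59, 4.31 ± 0.39 and 5.18 ± 0.39 in wild type at 12, 14 and 16 dpc, and 4.28 ± 0.44, 5.67 ± 0.44 and 6.00 ± 0.39 in Wv/Wv, with adjusted p of 0.000306 or less each time. The other 2 probe sets of Cbln1 gave the same direction in all 6 comparisons and passed in all, with changes of 5.75 to 7.36 on one and 2.39 to 4.22 on the other. The size for Cbln1 therefore depends on the probe set, and the direction did not.

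Cbln4, its relative, stood out by its course with age. Wild-type testes read 10.63 at 12 dpc, then 9.33, 8.99 and 9.21 at 14 dpc and 8.57, 9.11 and 9.22 at 16 dpc. Wv/Wv testes read 10.82, 9.38 and 9.55 at 12 dpc, 9.02 and 8.62 at 14 dpc, and 8.80, 9.14 and 8.90 at 16 dpc. In both genotypes every array at 12 dpc lay above every array at 14 and 16 dpc, the reverse of the order seen for Defb19. Over all genes 33.2% in wild type and 24.3% in Wv/Wv were lower at 14 than at 12 dpc without overlap. In ovaries it ran from 4.56 to 6.09 with a median of 5.43, close to the limit of 5.39.

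Because ovary arrays read under that limit, the testis excess of Cbln4 is best given as a bound. It was at least 31.6-fold in wild type at 12 dpc, where 1 of 2 ovary arrays was under the limit, and at least 13.3-fold at 14 dpc. In Wv/Wv it was at least 23.1-fold at 12 dpc and at least 11.8-fold at 16 dpc, where all ovary arrays were under it. The fitted changes were 5.09 ± 0.45, 3.86 ± 0.30 and 3.26 ± 0.30 in wild type and 4.92 ± 0.33, 2.96 ± 0.33 and 4.11 ± 0.30 in Wv/Wv, with the highest adjusted p at 2.89e-06.

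Defb19, the beta-defensin, was higher in testis in all 6 comparisons and lower in testes at 12 dpc than later. In wild-type testes it was 10.29 at 12 dpc, 12.59, 12.52 and 12.51 at 14 dpc, and 10.82, 12.66 and 12.70 at 16 dpc. In Wv/Wv testes it was 10.49, 8.05 and 8.63 at 12 dpc, 12.81 and 12.54 at 14 dpc, and 12.63, 12.72 and 12.77 at 16 dpc. From 14 dpc on, all testis arrays read 12.51 to 12.81 except array 1 of wild type at 16 dpc, at 10.82. The ovary arrays ran from 5.48 to 8.45, and 1 testis array, array 2 of Wv/Wv at 12 dpc, lay among them at 8.05.

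Compared within an age, testis arrays of Defb19 lay above the ovary arrays throughout. The changes were 4.17 ± 0.69, 4.55 ± 0.46 and 4.32 ± 0.46 in wild type at 12, 14 and 16 dpc (adjusted p 0.00406, 3.39e-07 and 6.11e-07). In Wv/Wv they were 3.02 ± 0.52, 5.30 ± 0.52 and 4.48 ± 0.46 (adjusted p 0.00406, 3.22e-07 and 3.29e-07). At 12 dpc the call was lost without wild-type ovary array 1 (3.53, adjusted p 0.058) and, in Wv/Wv, without ovary array 1 (2.75, adjusted p 0.139).

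Ptgds, the prostaglandin D2 synthase, read above the dim limit of 5.39 on every ovary array too. Its ovary arrays ran from 7.07 to 8.90 with a median of 7.54, and the 3 wild-type arrays at 16 dpc, all narrow-spread, were 8.90, 8.52 and 8.32. Testis arrays were 10.28 in wild type at 12 dpc, 11.39, 11.44 and 11.26 at 14 dpc and 11.24, 11.25 and 11.30 at 16 dpc. In Wv/Wv they were 10.85, 8.66 and 8.92 at 12 dpc, 11.57 and 11.84 at 14 dpc, and 11.96, 11.19 and 11.29 at 16 dpc. Only array 2 of Wv/Wv testes at 12 dpc, at 8.66, lay within the ovary range, and it still exceeded the ovary arrays of that age.

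The testis excess of Ptgds was 2.97 ± 0.64 in wild type at 12 dpc (adjusted p 0.0456), 3.72 ± 0.43 at 14 dpc (1.95e-06) and 2.68 ± 0.43 at 16 dpc (0.000143). The first of these did not pass without wild-type ovary array 1 (3.19, adjusted p 0.0982) or array 2 (2.74, 0.361). In Wv/Wv it was 1.97 ± 0.48 at 12 dpc (adjusted p 0.0788), 4.04 ± 0.48 at 14 dpc and 3.64 ± 0.43 at 16 dpc. The 12 dpc value in Wv/Wv passed without testis array 2 (2.38, adjusted p 0.0235), in the class-adjusted fit (adjusted p 0.0106) and on the second probe set of Ptgds (3.04 ± 0.51, adjusted p 0.00481).

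Vnn1, the surface pantetheinase, was called in none of the 6 comparisons by the fit of group means, and its changes ran from 0.75 to 2.18. Its second probe set was not called in any of them either, with changes of 0.78 to 2.96. Ovary arrays ran from 6.88 to 9.49 with a median of 7.91 and testis arrays from 7.44 to 10.32 with a median of 9.99. In wild-type testes it was 9.87 at 12 dpc, 10.26, 10.32 and 10.23 at 14 dpc, and 7.44, 10.26 and 10.20 at 16 dpc. The exception of 7.44 is array 1 of wild-type testes at 16 dpc, and it lies below the 3 ovary arrays of that age, which read 7.81 to 7.91.

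At 14 dpc the 3 wild-type testis arrays of Vnn1 did not overlap the ovary arrays, which were 7.63, 9.02 and 8.65. The change was 1.84 ± 0.63 (adjusted p 0.0976) from group means and 1.39 ± 0.27 (adjusted p 0.000572) in the class-adjusted fit. At 16 dpc it was 1.45 ± 0.63 from group means, 1.02 ± 0.34 in the class-adjusted fit (adjusted p 0.0438) and 2.38 (adjusted p 0.00436) without testis array 1 and with no class term. The last pair of values sets wide-spread testis arrays against narrow-spread ovary arrays, so gonad and class cannot be told apart for Vnn1 there. Over the narrow-spread arrays alone, which set that array 1 against the 3 ovary arrays, it was -0.41 ± 0.26. In Wv/Wv the class-adjusted changes were 0.94 ± 0.29, 1.95 ± 0.29 and 0.75 ± 0.26 at 12, 14 and 16 dpc, of which the first did not pass (adjusted p 0.109) and the others did (4.06e-05 and 0.0444).

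Tesc, the calcium-binding protein, was higher in testis in all 6 comparisons, with changes of 4.15 to 4.54. Ovary arrays ran from 5.98 to 7.39 and testis arrays from 9.32 to 11.86, with medians of 6.63 and 11.25. The changes were 4.46 ± 0.75, 4.15 ± 0.50 and 4.29 ± 0.50 in wild type and 4.15 ± 0.56, 4.27 ± 0.56 and 4.54 ± 0.50 in Wv/Wv, with adjusted p from 0.00438 in wild type at 12 dpc down to 8.76e-07. Its second probe set, which was dimmer, gave 2.62 to 3.61 and passed in all 6 comparisons. Wild-type testes read 11.24 at 12 dpc, 11.34, 11.25 and 11.14 at 14 dpc and 9.32, 11.56 and 11.53 at 16 dpc, so array 1 at 16 dpc was again the low one.

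Between the array classes Amh differed in the opposite sense to Vnn1 and Tesc. Both classes occur in 6 groups. In the 3 testis groups Amh was higher on narrow-spread arrays by 2.23, 3.32 and 3.14, and in the 3 ovary groups by 0.67 to 0.82. Vnn1 was lower on narrow-spread arrays in all 6 groups, by 1.20 to 2.79 in size, and Tesc in all 6, by 0.66 to 2.22 in size. Both largest values are from wild-type testes at 16 dpc, whose narrow-spread array is the array 1 dropped from the class-adjusted fit. Without that group the sizes reached 1.81 for Vnn1 and 0.90 for Tesc.

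**Figure D3:**
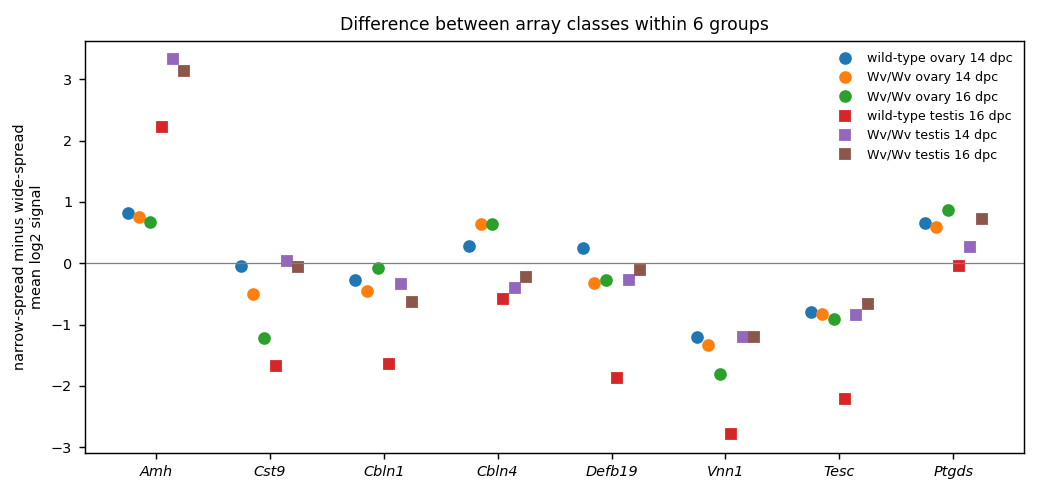
Mean log2 signal on narrow-spread minus wide-spread arrays (vertical axis) for each gene in the 6 groups that hold both classes; squares are testes and circles ovaries. The 3 squares of Amh lie at 2.23 to 3.32, and all 6 symbols of Vnn1 and of Tesc lie below 0.

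Ranked by the lowest of the 3 testis differences, Amh had the highest value of all 18194 genes, 2.23, where the median gene had -0.60. The spread of Amh among the Wv/Wv testis arrays at 14 dpc was known when the gene was chosen, so its rank and its class term are a description. As the class term of the class-adjusted fit, narrow-spread minus wide-spread was 1.66 ± 0.29 for Amh, which lies between the testis and the ovary differences and describes neither gonad. The term was -1.36 ± 0.18 for Vnn1 (adjusted p 6.49e-07), -0.81 ± 0.21 for Tesc (0.00143) and 0.64 ± 0.26 for Ptgds (0.0296). These 4 of 8 members were called, against 74.4% of all genes, so the share among the members was not above the background. Cst9, Cbln1, Cbln4 and Defb19 had class terms of -0.38, -0.36, 0.22 and -0.14 and were not called. With wild-type testis array 1 at 16 dpc kept in that fit, 6 of 8 were called against 77.6% of all genes, Cst9 (-0.61 ± 0.23, adjusted p 0.021) and Cbln1 (-0.58 ± 0.21, 0.0137) being the added ones. The Gapdh difference between 3′ and 5′ probe sets was lower on the narrow-spread arrays by 0.87 to 1.63 in the same 6 groups, and its part in the values of Amh was not tested.

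None of the 8 genes passed between Wv/Wv and wild-type testes. In Wv/Wv against wild-type testes limma called 0 of 8 at 12 dpc, where 0.033% of all genes were called, 0 of 8 at 14 dpc, against 0.594%, and 0 of 8 at 16 dpc, against 0.484%. At an unadjusted p below 0.05 there were 0, 1 and 0 members, the 1 being Amh. Germ cell genes fell in the same comparison, with a median change of -4.91 over 12 genes at 14 dpc.

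At 14 dpc the 5 testis arrays of the genotypes interleaved for Cbln1, Cbln4, Defb19 and Tesc. Both Wv/Wv arrays lay above wild type for Cst9, Ptgds and, by less than 0.01 on array 1, Amh, and below it for Vnn1, where 17.3% of all genes were higher and 14.9% lower without overlap. Changes ran from -0.71 for Vnn1 to 0.34 for Ptgds, apart from Amh at 1.96 ± 0.81. Over the wide-spread arrays alone, 3 of wild type against 1 of Wv/Wv, Amh differed by 0.30 ± 0.35 and the 8 genes by -0.15 to 0.30. At 16 dpc the 8 changes ran from -0.02 to 0.65, and over the 4 wide-spread arrays from -0.20 to 0.15. The 2 narrow-spread arrays at 16 dpc differed from each other by up to 1.82, for Defb19, and this pair includes array 1 of wild type. The interaction of gonad type with genotype passed in 0 of 8 genes at 12, 14 and 16 dpc (limma), against 0%, 0.275% and 0.813% of all genes, and at an unadjusted p below 0.05 there were 0, 1 (Cbln1) and 0. A p that misses the threshold does not show equal levels, and the SE of these genotype changes was 0.30 to 1.03.

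**Figure D4:**
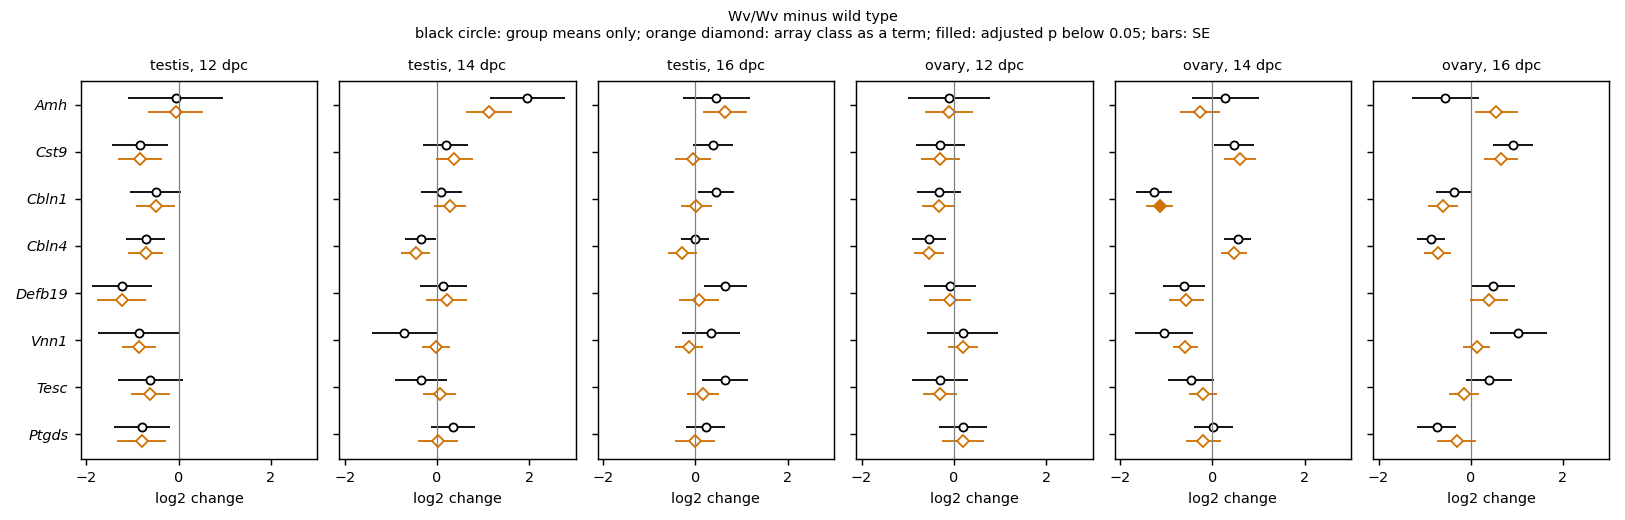
Wv/Wv minus wild type on the log2 scale for each gene in testes and ovaries at 3 ages; bars are the SE of the fit, black circles the fit of group means, orange diamonds the class-adjusted fit, and filled symbols mark an adjusted p below 0.05. The only filled symbol is the diamond of Cbln1 in ovaries at 14 dpc, at -1.15, and the circle of Amh in testes at 14 dpc lies at 1.96 with a bar of 0.81.

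In ovaries, too, limma called 0 of 8 between genotypes at 12, 14 and 16 dpc, where 0.0934%, 4.37% and 3.74% of all genes were called. At an unadjusted p below 0.05 there were 0 members, 1 (Cbln1) and 2 (Cst9 and Cbln4). Cbln1 came closest: wild-type ovaries at 14 dpc read 7.02, 7.32 and 7.27 and Wv/Wv ovaries 6.24, 5.83 and 5.75, with no overlap. Over all genes, 10.9% were lower in Wv/Wv without overlap in that comparison. The change of Cbln1 was -1.26 ± 0.39 (adjusted p 0.0733). The other probe sets of Cbln1 did not pass and disagreed in direction, with -0.80 ± 0.58 (adjusted p 0.531) and 0.57 ± 0.43 (0.545). The value from the probe set used passed in the class-adjusted fit, at -1.15 ± 0.30 (adjusted p 0.00873), where 20.6% of all genes were called, and without Wv/Wv ovary array 1 (-1.42, adjusted p 0.0448). At 16 dpc Cbln4 was -0.87 ± 0.30 (adjusted p 0.0998) and passed without Wv/Wv ovary array 2 (-1.08, adjusted p 0.0398). All 3 wild-type arrays there are narrow-spread, and array 2 is the only narrow-spread array of Wv/Wv. Without it, genotype and class cannot be told apart, and with it they overlap in part, for Cst9 as for Cbln4. In the 3 ovary groups with both classes, Cbln4 was higher on narrow-spread arrays by 0.29 to 0.64, and Cst9 was lower on them.

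Between 12 and 14 dpc some members changed in testes. In Wv/Wv testes 3 of 8 passed as higher at 14 than at 12 dpc, against 1.36% of all genes called higher, 0.802% called lower and 2.17% called in either direction. Leaving out 1 array at a time gave 1 to 5 of 8. Arrays 2 and 3 of the Wv/Wv testes at 12 dpc stand apart, with mesonephros genes higher by 1.79 and 1.51 as medians than on the wild-type array, and the part of that in the age changes was not tested. Defb19 rose by 3.62 ± 0.52 (adjusted p 0.000119), Ptgds by 2.22 ± 0.48 (0.0096) and Amh by 3.10 ± 0.81 (0.0437). Amh lost the call without testis array 2 at 14 dpc (1.44) and without array 2 or 3 at 12 dpc (adjusted p 0.169 and 0.18), but over the wide-spread arrays alone it rose by 1.44 ± 0.35 (adjusted p 0.0232). Ptgds lost it without any 1 of 4 arrays, with adjusted p of 0.0591 to 0.163, and Defb19 kept it in each such fit. With only the arrays compared in the limma fit, 0 of 8 passed in this step and 5 had an unadjusted p below 0.05. With the labels' replicate number as a block, the change of Amh: Wv/Wv testis, 14 against 12 dpc, was 2.99 (adjusted p 0.0821).

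The class-adjusted fit called 7 of 8 members in that step, where 7.76% of all genes were called in either direction. Amh, Cst9, Cbln1, Defb19, Vnn1 and Ptgds rose, by 2.27, 1.81, 1.57, 3.69, 1.23 and 1.90, and Cbln4 fell by 1.20 ± 0.32 (adjusted p 0.019). Tesc, at 0.67 ± 0.35, did not pass. All arrays at 12 dpc are wide-spread, and over the wide-spread arrays alone, with 1 array at 14 dpc, 3 of 8 passed (Amh, Defb19 and Ptgds), against 7.26% of all genes. Cbln4 was -0.89 ± 0.42 there (adjusted p 0.235). In wild-type testes, with the single array at 12 dpc, 0 of 8 passed between 12 and 14 dpc (limma; 0.786% of all genes, 0.583% higher), and 2 had an unadjusted p below 0.05, Cbln4 and Defb19. Their changes were -1.45 ± 0.42 (adjusted p 0.162) and 2.25 ± 0.65 (0.159), and both passed in the class-adjusted fit (0.0335 and 0.0154), where 3.49% of all genes did. The step in wild type ran the same way as in Wv/Wv for both.

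From 14 to 16 dpc no member passed in limma, with 0 of 8 in wild type (0.83% of all genes) and 0 of 8 in Wv/Wv (0.11%, of which 0.0715% higher and 0.0385% lower), and none had an unadjusted p below 0.05. The changes ran from -0.97 to 0.43 in wild type and from -1.07 to 0.55 in Wv/Wv, both ends in Wv/Wv being Amh and Tesc. These ranges include the narrow-spread testis arrays. In the class-adjusted fit, which drops wild-type array 1 at 16 dpc, they were -0.31 to 0.30 in wild type and -0.80 to 0.42 in Wv/Wv. Cst9 was lower at 16 than at 14 dpc on all arrays of Wv/Wv, 11.57 to 11.66 against 12.23 and 12.27, a change of -0.63 ± 0.49. Over all genes 6.97% were lower in that comparison with no overlap.

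Among the Wv/Wv testes at 12 dpc, arrays 2 and 3 stood apart from array 1 for all members. Against the single wild-type array, array 1 of Wv/Wv was higher by 0.38 as the median of the 8 members, and arrays 2 and 3 were lower, with medians of -1.30 and -1.17. Defb19 differed most, at 0.20, -2.24 and -1.66, and Amh least on the lower arrays, at 0.56, -0.34 and -0.42. All 8 were higher than wild type on array 1 and all 8 lower on arrays 2 and 3.

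**Figure D5:**
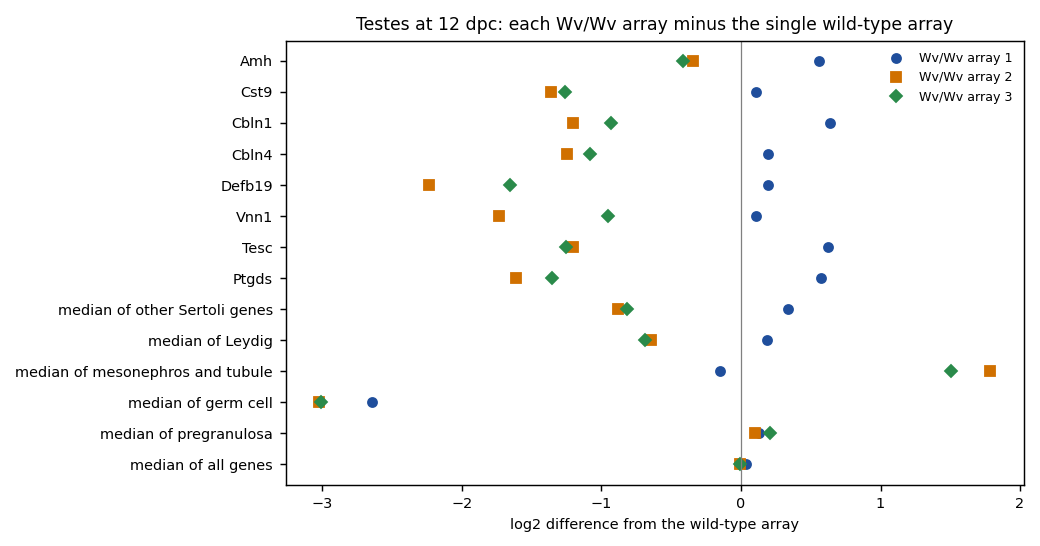
Log2 difference of each of the 3 Wv/Wv testis arrays at 12 dpc from the single wild-type array (horizontal axis), for the 8 genes and for the medians of gene lists. Arrays 2 and 3 lie left of 0 for every member and right of 0 for the mesonephros list, at 1.79 and 1.51, while array 1 lies right of 0 for every member.

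Other lists moved on the same arrays. The median of 15 other Sertoli genes, such as Dhh and Gdnf, was 0.33, -0.88 and -0.81 on arrays 1, 2 and 3, and that of 5 Leydig genes 0.19, -0.64 and -0.69. The 7 mesonephros and tubule genes went the other way, at -0.15, 1.79 and 1.51, and their summed linear signal was 1680 to 3305 in this group and 1654 on the wild-type array. Germ cell genes were low on all 3, at -2.64, -3.02 and -3.01, and the median over all genes was 0.03, -0.01 and -0.01. The part of the mesonephros signal in the lower values of the members was not tested. The wild-type array also carried Prl8a2, a placental and decidual hormone, at 8.73, where the highest other array read 5.98.

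Few members changed with age in ovaries, and Defb19 was the main one. From 12 to 16 dpc Defb19 went from 5.48 and 6.76 to 7.85, 7.42 and 7.95 in wild type and from 5.77 and 6.31 to 8.19, 8.05 and 8.45 in Wv/Wv, with no overlap in either. Over all genes 30.2% were higher without overlap in wild type and 13.9% in Wv/Wv. The change was 1.62 ± 0.52 in wild type (adjusted p 0.0548) and 2.19 ± 0.52 in Wv/Wv (adjusted p 0.0141). Thus limma called 0 of 8 in wild type, against 7.68% of all genes (3.01% higher), with 2 at an unadjusted p below 0.05 (Defb19 and Ptgds), and 1 of 8 in Wv/Wv, against 3.69% (2.22% higher).

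The Wv/Wv call of Defb19 was lost without ovary array 1 or 2 at 12 dpc (adjusted p 0.251 and 0.064) or array 3 at 16 dpc (0.0594). In the class-adjusted fit it passed in both genotypes, with 1.76 ± 0.49 and 2.24 ± 0.43, and so did Vnn1, with 1.32 ± 0.34 and 1.26 ± 0.30. For Vnn1 in wild-type ovaries the fit of group means had given -0.03. In wild-type ovaries all 3 arrays at 16 dpc are narrow-spread while both at 12 dpc are wide-spread. There class and age cannot be told apart for any member, Defb19 and Ptgds included. In Wv/Wv the wide-spread arrays alone gave 1.41 ± 0.38 for Vnn1 (adjusted p 0.017) and 2.28 ± 0.56 for Defb19 (0.0103). The second probe set of Vnn1, in the fit of group means, was not called in either genotype. It gave -0.52 ± 0.98 in wild type and 0.76 ± 0.98 in Wv/Wv. The interaction of gonad type with age in Wv/Wv, 16 against 12 dpc, was called for 0 of 8 by limma (1.09% of all genes), with Cbln1, Defb19 and Ptgds at an unadjusted p below 0.05. Cbln1 passed in the class-adjusted fit, 1.72 ± 0.44 (adjusted p 0.0179), where 6.65% of all genes did, and without Wv/Wv testis array 1 at 12 dpc Cbln1 and Ptgds passed, at 2.29 and 2.36.

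Some partners of these products passed between the gonads. In wild type at 14 dpc, 3.17% of all genes were called higher and 2.76% lower in testis. Of 10 receptor and Smad genes of the Amh pathway, 0 were higher and 2 lower in wild-type testes at 14 dpc, with a median change of 0.02. Amhr2, the type II receptor of Amh, was -1.05 ± 0.29 (adjusted p 0.0291) and the type I receptor gene Bmpr1b -1.73 ± 0.45 (0.0191). Amhr2 was lower in testes again at 16 dpc, by -1.79 ± 0.29 in wild type and -1.77 ± 0.29 in Wv/Wv. The receptor thus had its higher level in ovaries, with group means of 11.72 to 12.75 there and 10.41 to 11.48 in testes, opposite in direction to its ligand.

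Among relatives of the other members at 14 dpc in wild type, 1 gene was higher in testis. The shares over all genes were again 3.17% higher and 2.76% lower, and in Wv/Wv 2.32% and 1.36%. Of 9 other cystatins 0 were higher and 1 lower, Cst12, at -1.68 ± 0.44 (adjusted p 0.0214). Of 7 other cerebellins and cerebellin receptors and of 18 other beta-defensins 0 were called, and of 8 other prostaglandin D2 pathway genes 0 were called, in wild type and in Wv/Wv at 14 dpc. Of 11 other pantetheine and coenzyme A genes 1 was lower, Ppcdc, at -0.74 ± 0.16 (adjusted p 0.005). Of 4 relatives and partners of tescalcin, Chp2, a close homologue, was higher, at 1.17 ± 0.27 (0.00792), and Cib1 lower, at -0.87 ± 0.26 (0.0432). Chp2 passed as higher in Wv/Wv as well, at 1.41 ± 0.31 at 14 dpc (adjusted p 0.00637).

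Among 9 transcription factors of Sertoli cells, Sox9 and Sox8 were higher in wild-type testes at 14 dpc, by 2.05 ± 0.50 (adjusted p 0.0115) and 1.42 ± 0.25 (0.000492). The list as a whole did not separate the gonads by summed linear signal. This sum was 4885 to 6138 in those testes and 4905 to 5469 in wild-type ovaries of that age. Of 15 other Sertoli genes 10 were higher and 1 lower in wild-type testes at 14 dpc, and in Wv/Wv 7 were higher and 1 lower. Over all genes 3.17% were called higher and 2.76% lower in wild type, and 2.32% and 1.36% in Wv/Wv. Dhh, a hedgehog ligand of Sertoli cells, was higher by 4.62 ± 0.37 and Gdnf, a growth factor for germ line stem cells, by 5.17 ± 0.46, in the range of the members. The median of that list was 1.69, below the 4.01 of the 8 members in the same comparison. At the same age 5 of 5 Leydig genes were higher, so the excess was not limited to Sertoli genes. The summed linear signal of the 15 other Sertoli genes was 26253 to 29069 in wild-type testes at 14 dpc and 8846 to 27710 at 16 dpc. That group at 16 dpc includes array 1, which had the lowest SD, 1.77, and is dropped from the class-adjusted fit. It also spread widely for housekeeping genes, 25973 to 69239, and Leydig genes, 12146 to 33435. The macrophage genes of that group spread less, 1484 to 1767. The wide range was therefore not particular to Sertoli genes.

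Over the 12 group means the members resembled one another. Pearson's r was 0.99 for Cst9 with Tesc, 0.98 for Cst9 with Cbln1 and 0.97 for Defb19 with Ptgds, and the lowest was 0.62, for Amh with Cbln4. These correlations share the arrays and the gap between gonads, and are given as a description. Over the wide-spread arrays the r of Amh with Ptgds was 0.98 and that with Cbln4 0.79.

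The genes most like each member, by r over the 12 group means, were often shared. For Cst9 these were Mmd2 (0.995), Gdnf (0.994) and Ankrd63 (0.993), for Tesc Mmd2 (0.996), Eif2s3y (0.991) and Tmem184a (0.990), and for Cbln1 Tmem184a (0.988), Mmd2 (0.987) and Ankrd63 (0.982). For Cbln4 all 3 were Y-linked, Kdm5d (0.983), Uty (0.976) and Eif2s3y (0.973). Rtn4rl1 was on the list of both Defb19 (0.983) and Ptgds (0.988). Vnn1 was nearest to Endod1 (0.955), and Amh to Trav9d-3 (0.974), Gpx3 (0.964) and Nppc (0.964), whose testis and ovary group means overlap.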

How the data were processed

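RNA of whole gonads was hybridised to 3′ arrays, 1 sample per array, per the labels' protocols. The authors deposited log2 signals of 45101 probe sets, made with RMA per the submitters' processing notes; not given in the sources used here are its version and which arrays were normalised jointly. RMA equalises overall brightness, so a shift in total RNA is not visible. The platform annotation gives 34958 probe sets 1 symbol and 932 several, and 9211 are not listed. A gene was read from its probe set of highest mean (18194 genes). Arrays have no read depth, and their number limits the precision.

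The groups come from the labels. One mean per group was fitted over 31 arrays with limma 3.58.1 in R 4.3.3 (19 residual degrees of freedom), and 22 comparisons were tested, with calls made where the Benjamini-Hochberg adjusted p over all genes was below 0.05. Values under 5.39, the 40th percentile of all values, count as dim, and no detection calls were used. Array classes were split at an SD of 2.2. Members, lists and tests were chosen with earlier results of these data known; the fits on either array class alone were chosen after seeing the data. The text names all members, called genes of the fixed partner lists and the 3 genes nearest to each member. The test was checked on simulated data. Same-numbered arrays did not deviate together (median r 0.006 over 138 pairs, -0.003 for other numbers). No duplicate was found among 27 pairs of arrays within groups. Figures and tables used Python 3.11.15, pandas 2.3.3, numpy 2.4.6 and matplotlib 3.10.9.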

Additional observations from a re-analysis of the deposited data

Results flagged for a closer look

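Defb19 differed between genotypes in opposite directions in ovaries at 14 and at 16 dpc. At 14 dpc the 3 wild-type arrays, 7.82 to 8.15, lay above the 3 Wv/Wv arrays, 7.23 to 7.60, and at 16 dpc the wild-type arrays, 7.42 to 7.95, lay below those of Wv/Wv, 8.05 to 8.45. Over all genes, 10.9% were lower in Wv/Wv without overlap at 14 dpc and 17.8% higher without overlap at 16 dpc. The genotype change at 14 dpc minus that at 16 dpc was -1.10 on the log2 scale. This difference between ages was not tested, neither change passed the test on its own, and all 3 wild-type arrays at 16 dpc are narrow-spread.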

How the results depend on the processing

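Beside the 22 counts of members called, 2977 of the refitted member changes kept direction and side of the threshold, 90 gained a call, 48 lost one and 3 reversed. With only the arrays compared in the fit, the testis against ovary counts at 12 dpc fell to 0 in wild type and 0 in Wv/Wv, that of Wv/Wv testes from 12 to 14 dpc to 0, and those of wild-type testes from 12 to 14 dpc and wild-type ovaries from 12 to 16 dpc went to 3 and 3. Over narrow-spread arrays alone 5 members were called between genotypes in testes at 16 dpc, where 1 array faces 1 and 31.5% of all genes were called, and 3 in the interaction at 16 dpc (17.7% of all genes), including Vnn1, which reversed to 1.56.

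Between genotypes in ovaries at 14 dpc 1 member was called with the class term, in the class-adjusted fit, with cyclic loess and with quantile normalization, and at 16 dpc 1 with cyclic loess. From 12 to 14 dpc in wild-type testes 1 was called with the class term, cyclic loess, housekeeping centring or quantile normalization and 2 in the class-adjusted fit, and in Wv/Wv testes 7 with the class term, 7 in the class-adjusted fit and 5 with cyclic loess. From 12 to 16 dpc in wild-type ovaries 2 were called with the class term, in the class-adjusted fit and with cyclic loess, and 1 with dim genes left out, housekeeping centring or quantile normalization. In Wv/Wv ovaries 2 were called with the class term, in the class-adjusted fit and over wide-spread arrays alone. The gonad by age interaction had 1 in the class-adjusted fit and with cyclic loess. Vnn1 in wild-type ovaries from 12 to 16 dpc reversed from -0.03 to 1.57 with the class term and 1.32 in the class-adjusted fit. The cause was not tested.

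Leaving out each array in turn gave 4 to 5 members called in wild-type testes against ovaries at 12 dpc, 6 to 6 at 14 and 6 to 7 at 16 dpc, and 4 to 6, 6 to 8 and 6 to 7 in Wv/Wv. It gave 1 to 5 for Wv/Wv testes from 12 to 14 dpc, 0 to 1 for Wv/Wv ovaries from 12 to 16 dpc, 0 to 1 between genotypes in ovaries at 14 and at 16 dpc, 0 to 2 for the gonad by age interaction and 0 to 0 elsewhere. Leaving out the single wild-type testis array at 12 dpc gives no value. An arm left with 1 array is assumed to vary like the other groups. The labels' replicate numbers were also fitted as a replicate block; 2 calls were lost, Ptgds in wild type at 12 dpc (adjusted p 0.0695) and Amh in Wv/Wv testes from 12 to 14 dpc, so the counts were 5 and 2, and no other call changed. Array weights could not be fitted, since the weights did not converge, and are not used. Centring on housekeeping genes moved every change of a comparison by up to 0.82 in size, the most in wild-type ovaries from 12 to 16 dpc.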
